A study of Medicago truncatula with 160 samples.

Results

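Nodules of Medicago truncatula line DZA that were rich in rhizobial RNA were compared with DZA nodules that were poor in it, to describe how the plant part of the nodule transcriptome differed between them. The libraries were chosen by a threshold on a measured value, the rhizobial share, which is the sum of the Sinorhizobium meliloti counts divided by the sum of all counts of a library. Of 80 DZA libraries, 20 had a share of 50% or more and are called rich, 22 had a share of 20% or less and are called poor, and 38 lay between. The whole series holds 160 libraries, the other 80 from host line A17. Each library was made from pooled mature nodules of 1 plant that had been inoculated with 1 of 20 wild S. meliloti strains, and 4 plants were sequenced for each strain on each host. Both groups thus shared the host line, the greenhouse soil mixture and the library kit, and differed in the share and in part in strain. In the rich group were strains 121, 25B and 746B, which had no poor library, and in the poor group strains 141, 176A, 182, 199, 206 and 216, which had no rich library. The 10 strains 144B, 204, 230, 278, 282, 31, 335, 724B, 748B and 89 had libraries in both groups, and strain 283 had none in either.

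Rhizobia enter Medicago roots through infection threads after Nod factors are perceived by receptor kinases and decoded by nuclear calcium signalling. Inside nodule cells they are enclosed in membrane compartments, the symbiosomes, where nodule-specific cysteine-rich (NCR) peptides drive their differentiation into nitrogen-fixing bacteroids. The plant supplies carbon, phosphate, sulfate and metals to the bacteroids, and leghemoglobins buffer the free oxygen that would inactivate nitrogenase.

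The rhizobial share of the rich libraries ran from 50.6% to 87.5%, with a median of 68.8%, and that of the poor libraries from 3.68% to 18.04%, with a median of 13.0%. These values chose the groups and carry no test. Just inside and outside the thresholds were strain 31 plant 3444 at 50.6% and strain 199 plant 3364 at 49.97%, and strain 230 plant 3400 at 18.04% and strain 335 plant 3431 at 20.3%. Strains 31 and 89 gave 3 rich libraries each. The 3 rhizobial rows with the largest summed counts took 3.501% to 87.3% of the rhizobial counts in rich and 4.64% to 50.1% in poor libraries. The highest value was that of the rich library of strain 89 plant 3452, whose share of 54.8% was 30.9% without these rows and the 10 largest plant rows. When the libraries were ranked by that reduced share and groups of the same sizes taken, 19 of the 20 rich and 18 of the 22 poor libraries kept their group, and 11123 plant genes were higher and 9928 lower in the test described below. The share varied within strains as well as between them, as the plot of share by strain shows.

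**Figure D1:**
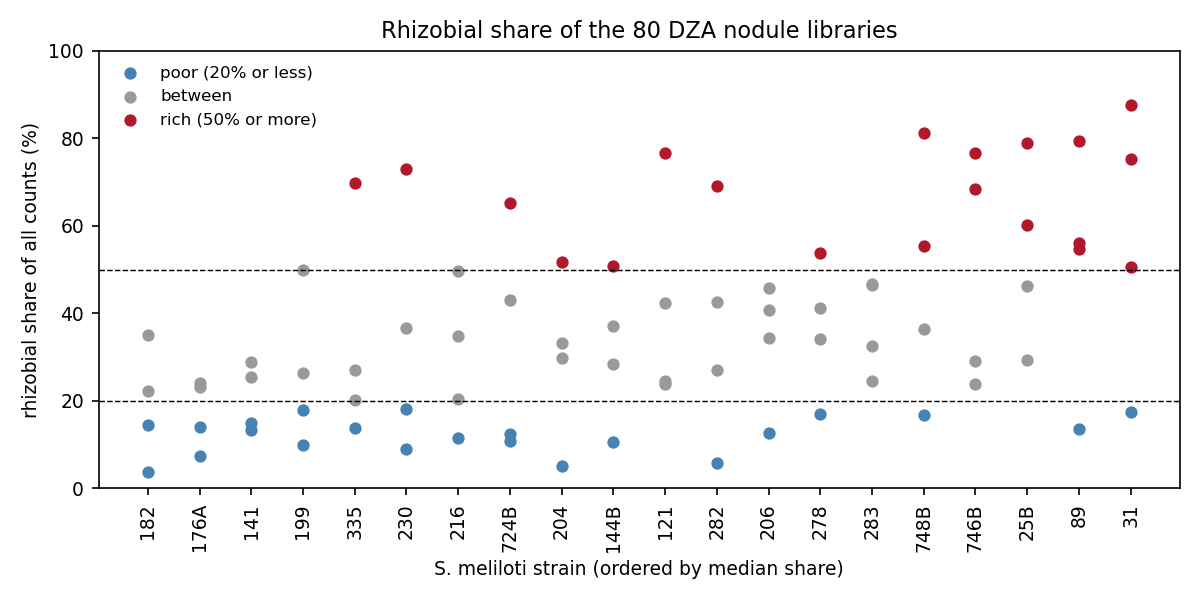
Each point is 1 of the 80 DZA libraries, placed by its S. meliloti strain (horizontal axis, ordered by median) and by its rhizobial share of all counts in percent (vertical axis). Dashed lines mark 20% and 50%; 10 strains have points both above the upper and below the lower line.

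Total counts of the rich libraries (31459646 to 68594532) and the poor libraries (38109863 to 62177876) overlapped, but plant counts did not. The rich libraries held 6526598 to 30114912 plant counts and the poor libraries 31249737 to 58578353. The plant depth of a rich library was therefore always below that of a poor one, and low plant transcripts were measured less precisely there. The strain of 2 poor libraries went against its label when 561 variable rhizobial genes were scored as on or off. The library labelled strain 182 plant 3406 matched strain 176A at 92.8% of these genes and its own strain at 38.2%, and the library labelled strain 176A plant 3292 matched strain 182 at 74.96% and its own strain at 47.6%. Another poor library, strain 230 plant 3400, matched strain 182 and its own strain about equally, at 75.5% and 75.2%, as did a library of strain 25B between the groups with strain 31 and its own, at 84.05% and 83.96%. Counts without strains 182, 176A and 25B, and also without strain 230, the latter chosen after seeing the data, are given beside the main ones.

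The plant counts themselves were composed differently in the rich and poor groups. The 10 plant rows with the largest summed counts took 60.3% ± 12.1 (SD, n = 20) of the plant counts in the rich libraries and 27.1% ± 5.37 (SD, n = 22) in the poor ones. The difference of 33.3 percentage points had a two-sided permutation p of 2e-05, the smallest that 100000 resamples can give (8e-05 adjusted over 4 measures), and was in the same direction in 10 of 10 strains with both kinds of library. A gap as large as this was found in 4 of the rows, with neighbouring chromosome 5 identifiers, which took 48.5% ± 13.1 of the rich and 15.05% ± 4.37 of the poor plant counts. The row MtrunA17_Chr5g0422081 took 8.94%, 16.7% and 29.9% (lowest, median, highest) of plant counts in the rich libraries and 2.39%, 4.94% and 13.2% in the poor ones, so that the ranges overlapped only slightly. The reference to which the authors mapped held ribosomal RNA transcripts; what these rows encode was not annotated in the sources used here. The rich and poor libraries overlapped in the share of the 10 rows only between 41.6% and 43.3%, so this share and the rhizobial share moved together, and the gene results below are given with this share as a covariate and without these rows.

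**Figure D2:**
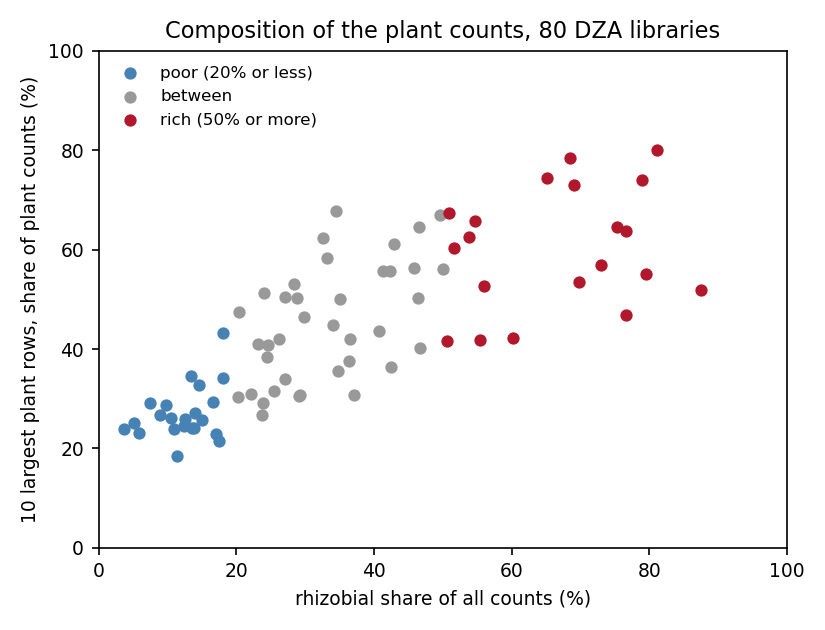
Each point is 1 of 80 DZA libraries, with the rhizobial share of all counts on the horizontal axis and the share of plant counts in the 10 largest plant rows on the vertical axis, both in percent. The 20 rich libraries lie between 41.6% and 79.9% on the vertical axis and the 22 poor ones between 18.4% and 43.3%.

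Rich and poor libraries were then compared gene by gene over plant rows only, scaled among themselves by edgeR's trimmed mean of M values (TMM), so that the rhizobial counts did not enter the level of a plant gene. Of 34224 plant genes tested, 11459 (33.5%) were higher and 10052 (29.4%) lower in rich nodules at a Benjamini-Hochberg adjusted p of 0.05 in edgeR's quasi-likelihood test. Changed genes were thus the majority, and these shares are the background against which each group of genes is read below. Without strains 182, 176A and 25B, 10657 were higher and 9328 lower, also without strain 230 the counts were 10367 and 8963, and with strain as a block 6760 and 8456. The direction of a gene is relative to the scaling. When libraries were scaled by the plain sum of their plant counts the median log2 difference of all genes moved from 0.03 to -1.003 and 20.3% of the calls were higher in rich libraries, against 53.3% under TMM, and with DESeq2's size factors the median was 0.37 and 72.7% of the calls were higher. With the share of the 10 largest rows as a covariate, an alternative chosen after seeing the data, 965 genes were higher and 618 lower. When the 10 largest rows and the organelle genes were left out of the counts instead, 10964 were higher and 10534 lower.

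Higher and lower genes differed in their level. The median gene higher in rich nodules had 0.184 CPM (plant counts scaled to a fixed library size) over the 80 libraries, and 79.9% of these genes had a median under 1 CPM, whereas the median lower gene had 7.25 CPM. In the quartile of genes with the lowest levels 67.7% were higher and 2.71% lower, and in the top quartile 10.2% were higher and 56.8% lower, with medians of 1.96 and -0.40 on the log2 scale. Well expressed plant genes were therefore mostly lower, and for each group of genes below the share of genes at the same level quartiles that were lower is given. When every library was thinned to the lowest plant count, 4367 of the 11459 higher genes kept enough counts to be tested and 4345 of them were again higher, while 5986 of the 9766 lower genes that could be tested were again lower. The count filter was applied anew after thinning, and a low gene could pass it through the group where it was high. Agreement among the higher genes was therefore partly fixed in advance and is not support for them, and most of them could not be tested. In the counts as deposited, before any scaling, 2442 genes (7.14%) had a higher median in the rich than in the poor group despite the lower plant depth of the rich libraries.

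Among 84 genes of symbiotic nitrogen fixation (SNF) that the study lists from the literature, 54 were lower and 5 higher in rich nodules (64.3% and 5.95%), with a median log2 difference of -0.57. Genes at the same level quartiles were lower in 46.4% and higher in 17.8% of cases, and the mean of their quartile medians was -0.16. The list's median was below 0 in each of the 10 strains with both kinds of library, but that of all genes was at or below 0 in 9 of them. The sign alone therefore does not set the list apart. By strain the list's median ran from -0.98 to -0.32, and that of all genes from -0.28 to 0.05. Without strains 182, 176A and 25B 50 were lower and 3 higher, also without strain 230 50 and 4, with strain as a block 46 and 5, without the 10 largest and organelle rows 57 and 4, and with the covariate for the 10 largest rows 5 and 0. In each role described below no more than 1 gene passed with that covariate. The scaling mattered too: with the plain sum 77 SNF genes were lower and 2 higher, where 20135 of all 34224 genes were lower and 5135 higher. With DESeq2 35 were lower and 11 higher, with a median of -0.25, where 5875 of all 34224 genes were lower and 15676 higher. The lower genes with DESeq2 were 2 of 6 in early signalling and 9 of 16 in infection and membrane traffic. They were 6 of 11 in bacteroid differentiation and persistence and 8 of 14 in nutrient and metal supply. In a nodule homogenate fewer infected cells and less RNA per infected cell cannot be told apart. Neither can be told apart here from the changed composition of the plant counts, whose origin, in the tissue or in the library preparation, was not tested. The 51 list members with an acronym and an assigned role are drawn in the plot of log2 differences and described by role.

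**Figure D3:**
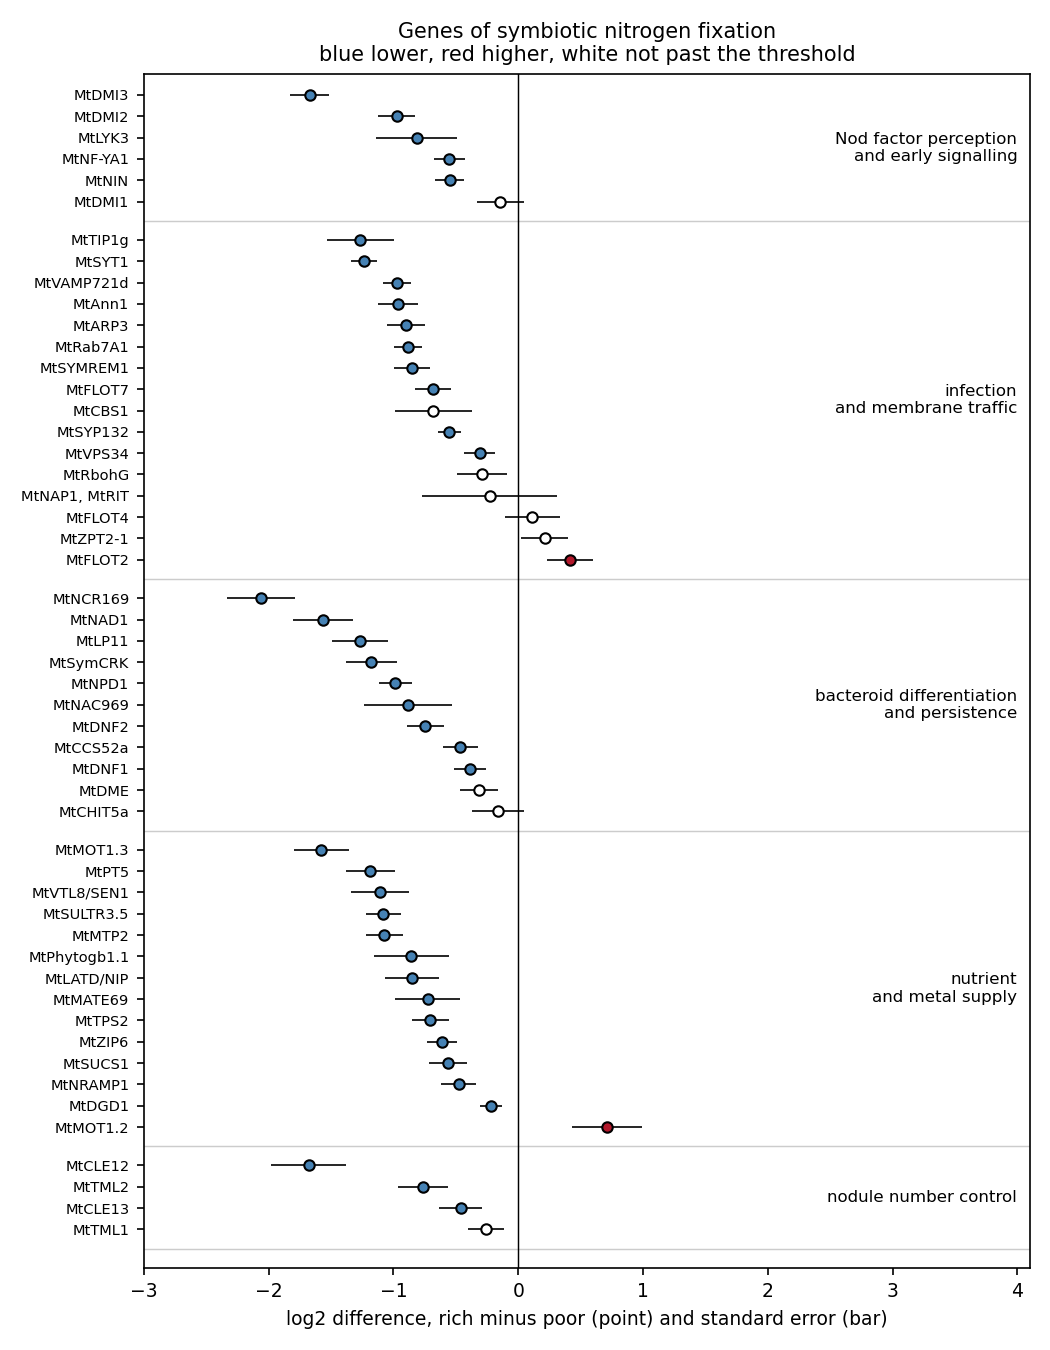
Each point is the log2 difference of 1 SNF gene between 20 rich and 22 poor DZA libraries (horizontal axis, edgeR), with its standard error as a bar, grouped by role. Points lie to the left of 0 for most genes of every role, from MtNCR169 at -2.06 to MtMOT1.2 at 0.71, and filled points passed the threshold.

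In Nod factor perception and early signalling, 5 of 6 genes were lower and none was higher, where 49.5% of genes at the same quartiles were lower. MtDMI3, the calcium- and calmodulin-dependent kinase that decodes nuclear calcium spiking, had 3.48, 7.69 and 17.3 CPM (lowest, median, highest) in rich libraries and 15.5, 26.4 and 35.0 CPM in poor ones. The ranges overlapped only at their ends, the log2 difference was -1.67 ± 0.16 (SE, edgeR adjusted p = 1.5e-11), and MtDMI3 was lower in the rich libraries of 10 of 10 strains. MtDMI2, the receptor-like kinase upstream of calcium spiking, had 29.4, 87.7 and 166 CPM in rich and 113, 175 and 246 CPM in poor libraries, a difference of -0.98 ± 0.15 (SE). The transcription factor MtNIN, which starts nodule organogenesis and infection, was lower by less, at -0.55 ± 0.12 (SE), and its levels of 77.35 to 220 CPM and 105 to 286 CPM overlapped over most of their range. MtNF-YA1, a transcription factor that acts downstream of MtNIN, was at -0.55 ± 0.13 (SE). The Nod factor receptor kinase MtLYK3 was measured at low levels, with medians of 0.311 and 0.548 CPM, and was at -0.81 ± 0.33 (SE, edgeR adjusted p = 0.028). The nuclear ion channel gene MtDMI1 did not pass the test (-0.14, edgeR adjusted p = 0.52).

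In infection and membrane traffic, 10 of 16 genes (62.5%) were lower and 1 was higher, where 48.6% of genes at the same quartiles were lower. MtSYT1, a synaptotagmin, had 3.48, 8.78 and 11.7 CPM in rich libraries and 13.8, 18.1 and 23.5 CPM in poor ones. All rich libraries were below all poor ones, as for 128 of the 34224 genes tested in either direction, and the log2 difference was -1.24 ± 0.11 (SE, edgeR adjusted p = 2.4e-12). The vesicle SNARE MtVAMP721d, which serves exocytosis toward the infection thread and symbiosome, had 9.06, 13.0 and 25.5 CPM in rich and 14.8, 24.9 and 34.8 CPM in poor libraries, and the late endosomal GTPase MtRab7A1 4.14, 8.32 and 11.3 CPM against 10.7, 14.6 and 19.7 CPM. Both were lower in the rich libraries of 10 of 10 strains, at -0.97 ± 0.11 and -0.88 ± 0.11 (SE). The symbiotic remorin MtSYMREM1, a scaffold protein of the infection thread membrane, was at -0.85 ± 0.14 (SE), the actin-nucleating subunit MtARP3 at -0.90 ± 0.15 (SE) and the annexin MtAnn1 at -0.97 ± 0.16 (SE). The flotillin MtFLOT2 was the higher gene, at 0.41 ± 0.18 (SE, edgeR adjusted p = 0.047), with medians of 15.6 and 13.9 CPM. Its rich and poor libraries overlapped widely, it was higher in 5 and lower in 5 of 10 strains, it did not pass with strain as a block, and its sign turned under the plain sum.

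In bacteroid differentiation and persistence, 9 of 11 genes were lower and none was higher, where 52.6% of genes at the same quartiles were lower. MtNCR169, an NCR peptide without which bacteroids do not persist, had 8.42, 29.2 and 110 CPM in rich libraries and 26.6, 140 and 293 CPM in poor ones. At -2.06 ± 0.27 (SE, edgeR adjusted p = 2.5e-08) it had the lowest log2 difference of the SNF genes, it was lower in 10 of 10 strains, and the ranges overlapped between 26.6 and 110 CPM. MtNAD1, which keeps defence responses low in infected cells, had 0, 4.01 and 8.03 CPM in rich and 1.495, 11.3 and 19.45 CPM in poor libraries, a difference of -1.57 ± 0.24 (SE). The cysteine-rich receptor-like kinase MtSymCRK and the phospholipase C-like protein MtDNF2 are also needed to keep defence low in nodules. They were at -1.18 ± 0.20 and -0.75 ± 0.15 (SE), with medians of 41.7 and 100.1 CPM for MtSymCRK and 58.3 and 95.3 CPM for MtDNF2 in rich and poor libraries. MtNPD1, a nodule-specific PLAT-domain protein, had medians of 88.0 and 161 CPM and a difference of -0.99 ± 0.13 (SE). MtDNF1, a subunit of the signal peptidase complex that processes NCR peptides, had a smaller difference of -0.39 ± 0.13 (SE, edgeR adjusted p = 0.0077), was lower in 7 of 10 strains and did not pass with strain as a block (edgeR adjusted p = 0.15). MtCCS52a, an activator of the anaphase-promoting complex that drives endoreduplication, was at -0.46 ± 0.14 (SE). The DNA demethylase MtDME (-0.31, edgeR adjusted p = 0.072) and the chitinase MtCHIT5a (-0.16, edgeR adjusted p = 0.51) did not pass.

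In nutrient and metal supply, 13 of 14 genes were lower and 1 was higher, where 51.2% of genes at the same quartiles were lower. With strain as a block 9 were lower. The sulfate transporter MtSULTR3.5 had 96.7, 231 and 373 CPM in rich libraries and 265, 464 and 662 CPM in poor ones, a difference of -1.08 ± 0.14 (SE, edgeR adjusted p = 1.5e-08). The phosphate transporter MtPT5 was at -1.19 ± 0.20 (SE), with medians of 24.7 and 53.2 CPM, and the zinc transporter MtMTP2 at -1.07 ± 0.15 (SE), with medians of 3.93 and 8.24 CPM. All of these were lower in the rich libraries of 10 of 10 strains. MtVTL8/SEN1, which carries iron toward the symbiosome, had medians of 65.1 and 115 CPM and was at -1.11 ± 0.23 (SE). The 2 molybdate transporters went opposite ways. MtMOT1.3 had 3.37, 8.27 and 19.8 CPM in rich and 6.77, 26.1 and 65.6 CPM in poor libraries (-1.58 ± 0.22, SE), while MtMOT1.2 had medians of 1.47 and 0.840 CPM (0.71 ± 0.28, SE, edgeR adjusted p = 0.026), a sign that turned under the plain sum. MtSUCS1, the sucrose synthase that feeds carbon into nodule metabolism, had 665, 1509 and 2529 CPM in rich and 1232, 2166 and 4536 CPM in poor libraries. Its log2 difference was -0.56 ± 0.15 (SE, edgeR adjusted p = 0.0016), but within strains it was lower in 5 and higher in 5 of 10, and it did not pass with strain as a block (edgeR adjusted p = 0.27).

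In the control of nodule number, 3 of 4 genes were lower, where 39.98% of genes at the same quartiles were lower. With strain as a block 2 were lower, and with DESeq2 1 was. The peptide hormone gene MtCLE12 was at -1.68 ± 0.30 (SE) with medians of 0.466 and 1.27 CPM, and MtCLE13, of the same family, at -0.46 ± 0.17 (SE) with medians of 2.42 and 3.16 CPM. MtTML2, an F-box protein of the shoot-to-root feedback loop, was at -0.76 ± 0.20 (SE) but did not pass with strain as a block (edgeR adjusted p = 0.11), and its paralog MtTML1 did not pass (-0.26, edgeR adjusted p = 0.11). Of the SNF genes outside these roles, MtZR1 was higher at 2.74 ± 0.57 (SE, edgeR adjusted p = 6.2e-05), from a median of 0.0286 CPM in poor to 0.293 CPM in rich libraries, in the lowest quartile of levels where most genes were higher.

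**Figure D4:**
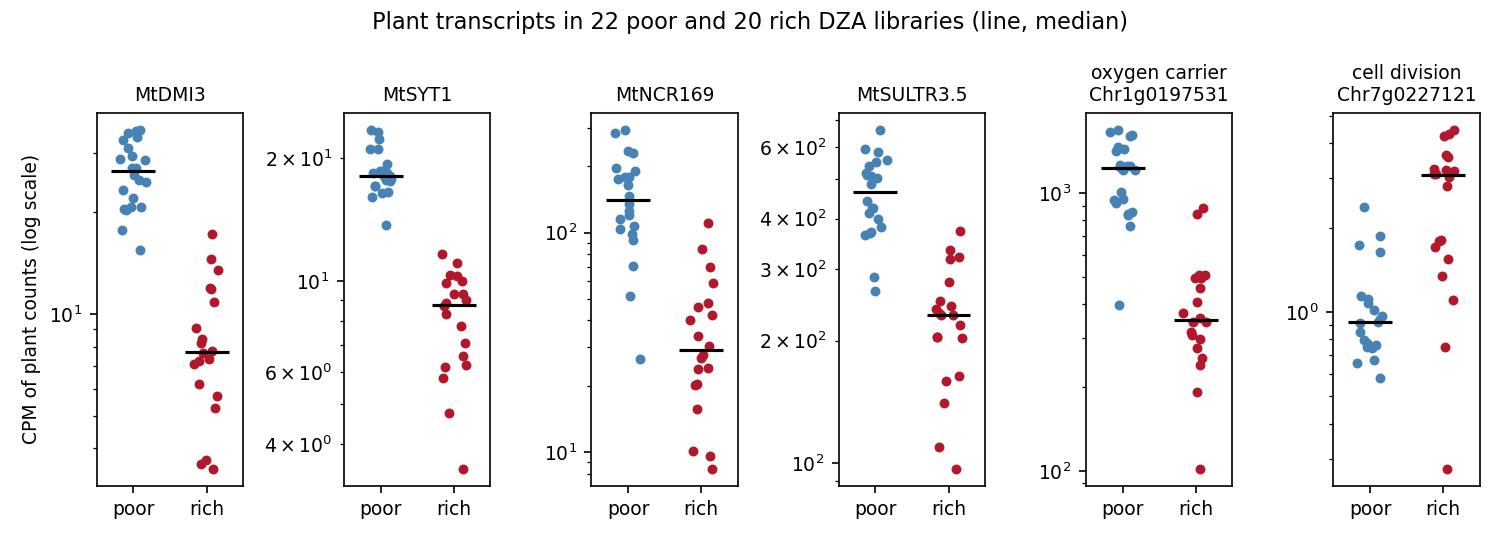
Each point is 1 library, with the poor libraries (22) at the left and the rich ones (20) at the right of each panel, the level of 1 gene in CPM of plant counts on a log scale, and the group median as a line. The groups separate for MtSYT1 (13.8 CPM and more against 11.7 CPM and less) and overlap for the other 5 genes.

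The 9 genes that carry the Gene Ontology term for oxygen carriers, the function of leghemoglobins, were all lower in rich nodules, where 51.9% of genes at the same quartiles were lower, with a median log2 difference of -1.18 against -0.30 for the mean of their quartile medians. Their summed level was 2130, 4777 and 9334 CPM (lowest, median, highest) in the rich and 4449, 10189 and 16244 CPM in the poor libraries, and none of them was at 0 across a group. No gene matched the product name of a leghemoglobin, so these genes stand as markers of nodule tissue by that term alone. They were present in both groups, at lower and overlapping levels in the rich one. MtrunA17_Chr1g0197531 had 102, 349 and 884 CPM in rich and 397, 1232 and 1693 CPM in poor libraries, a difference of -1.62 ± 0.19 (SE, edgeR adjusted p = 1.8e-09). It was lower in the rich libraries of 10 of 10 strains, as was MtrunA17_Chr5g0417631 at -1.56 ± 0.20 (SE). Of other tissues, 3 chlorophyll a-b binding proteins, shoot markers, were measured, and root marker names matched no gene. Of these 3, 1 was higher, near the 33.5% of all genes tested that were higher. This gene, MtrunA17_Chr5g0447531, was at 2.10 ± 0.46 (SE), with low medians of 1.04 and 0.148 CPM in rich and poor libraries. The part of other tissues in the results was not tested.

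The study drew this list and those that follow from co-expression modules of strain means of the same libraries, so their direction is not independent evidence. All 7 autophagy genes were lower, where 55.1% of genes at the same quartiles were lower (median -0.76, against -0.39 for the mean of their quartile medians). MtrunA17_Chr4g0069171 had 1.32, 4.72 and 8.81 CPM in rich and 6.28, 13.1 and 22.3 CPM in poor libraries, a difference of -1.61 ± 0.17 (SE, edgeR adjusted p = 1.3e-10). Of 14 genes with the term translation, 11 were lower and none was higher (median -0.68), where 52.6% of genes at the same quartiles were lower. The lowest of them, MtrunA17_Chr4g0041861, had 1.52, 4.51 and 7.46 CPM in rich and 10.6, 14.4 and 29.5 CPM in poor libraries, without overlap, at -1.84 ± 0.16 (SE, edgeR adjusted p = 2.3e-12). With the covariate for the 10 largest rows, none of the oxygen carriers or autophagy genes and 1 of the translation genes passed.

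Genes of phosphate metabolism were lower in shares near those of genes at the same level quartiles. Of 15 acid phosphatases 8 were lower and none was higher (53.3% lower, against 46.4% of genes at the same quartiles), and of 10 genes of the response to phosphate starvation 5 were lower and none was higher, near the 54.5% of genes at their quartiles. With strain as a block 6 acid phosphatases were lower and 1 was higher, and 2 phosphate starvation genes were lower. Within strains these lists were less uniform: their medians were lower in the rich libraries of 7 and higher in 3 of the 10 strains for either list. Of 8 genes that bind ferrous iron 5 were lower (62.5%, against 46.9% of genes at the same quartiles), and MtrunA17_Chr7g0243241 had medians of 0.366 and 2.63 CPM in rich and poor libraries (-2.39 ± 0.46, SE, edgeR adjusted p = 2e-05). Of 9 peroxidases 1 was lower, of 6 genes of systemic acquired resistance 2 were, of 4 genes of cytokinin signalling 1 was, and of 3 nitrate transporters none passed, where 26.2%, 43.65%, 56.8% and 49.0% of genes at the same quartiles were lower, and none of these lists held a higher gene. With strain as a block 4 peroxidases were lower, the cytokinin list had 1 higher and no lower gene, and 1 nitrate transporter was lower, with the median of that list at -0.73 against 0.18 without the block.

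Some genes of growth were higher under TMM. Of 7 cell division genes 3 were higher and none was lower, and of 6 nucleosome assembly genes 2 were higher and none was lower, whereas genes at the same quartiles were lower in 53.5% and 52.9% and higher in 11.2% and 11.3% of cases. The cell division gene MtrunA17_Chr7g0227121 had 0.276, 3.08 and 4.47 CPM in rich and 0.583, 0.919 and 2.37 CPM in poor libraries, a difference of 1.26 ± 0.21 (SE, edgeR adjusted p = 1.8e-06). It was higher in the rich libraries of 10 of 10 strains, although its levels overlapped, and it remained at 0.26 under the plain sum. The nucleosome assembly gene MtrunA17_Chr7g0269331 had 20.2, 39.4 and 81.1 CPM in rich and 16.4, 21.2 and 31.7 CPM in poor libraries (0.71 ± 0.12, SE), also higher in 10 of 10 strains, and its sign turned under the plain sum. The direction of both lists rested on the scaling: under the plain sum none of their members was higher, 5 of the 7 cell division genes and all 6 nucleosome assembly genes were lower, and with the covariate for the 10 largest rows none passed. Without the 10 largest and organelle rows 2 cell division genes were higher and 1 was lower. The 2 histone H4 genes with a product name, MtrunA17_Chr3g0103821 and MtrunA17_Chr4g0030431, which package DNA, were lower in rich nodules at -1.46 ± 0.47 and -0.56 ± 0.14 (SE).

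Genes with a product name in the study's annotation gave further examples among those that passed both between the groups and within strains. Glycine dehydrogenase (MtrunA17_Chr1g0151501), an enzyme of the glycine cleavage system, had 20.1, 39.9 and 59.1 CPM in rich and 53.65, 68.5 and 83.5 CPM in poor libraries, and was lower in 10 of 10 strains at -0.80 ± 0.10 (SE, edgeR adjusted p = 3.3e-09). Diacylglycerol O-acyltransferase 1B (MtrunA17_Chr4g0070991), which makes storage lipid, had 3.01, 4.61 and 8.14 CPM in rich and 2.57, 3.32 and 4.38 CPM in poor libraries, at 0.37 ± 0.10 (SE, edgeR adjusted p = 0.0019), and was higher in 9 of 10 strains. An elongation factor 1-alpha gene (MtrunA17_Chr1g0200071) was at 0.48 ± 0.18 (SE) with medians of 4.71 and 3.14 CPM. Neither of the last pair passed with strain as a block (edgeR adjusted p = 0.056 and 0.25), their signs turned under the plain sum, and their ranges overlapped between the groups.

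The comparison was repeated within strains, with a term for each strain and the rhizobial share as a slope over all 80 DZA libraries, which removes differences between strains. Per 10 percentage points of share, 10948 of 34224 genes (32.0%) were higher and 9596 (28.0%) lower. Without strains 182, 176A and 25B, 9031 were higher and 10935 lower, and also without strain 230 the counts were 8962 and 10610. Which direction held more genes thus turned when these strains were left out. The turn was not particular to these strains. It was also seen without replicate 1 (7498 higher, 9461 lower), 3 or 4, and without the 10 largest and organelle rows (9709 higher, 11158 lower). The majority stayed higher without replicate 2 (9236 higher, 7734 lower) and with DESeq2 or limma-voom. With all strains kept, 53 of the 84 SNF genes were lower and 7 higher with the share, and of the 9 oxygen carriers 8 were lower. The steepest SNF slope was again that of MtNCR169, at -0.47 log2 units per 10 points (edgeR adjusted p = 7.4e-12), followed by MtDMI3 at -0.32 (edgeR adjusted p = 1.1e-12). MtMATE69, a transporter of the multidrug and toxic compound extrusion family, passed between the groups (-0.73) but not with strain as a block (-0.07, edgeR adjusted p = 0.84) or within strains (-0.01 per 10 points, edgeR adjusted p = 0.91). Among the 10 strains with both kinds of library, the median SNF difference ran from -0.98 in strain 282 to -0.32 in strain 278, and that of the oxygen carriers from -2.19 in strain 748B to -0.83 in strain 278. Most of these strains had 1 library of a kind, so such a value has no replicate check.

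**Figure D5:**
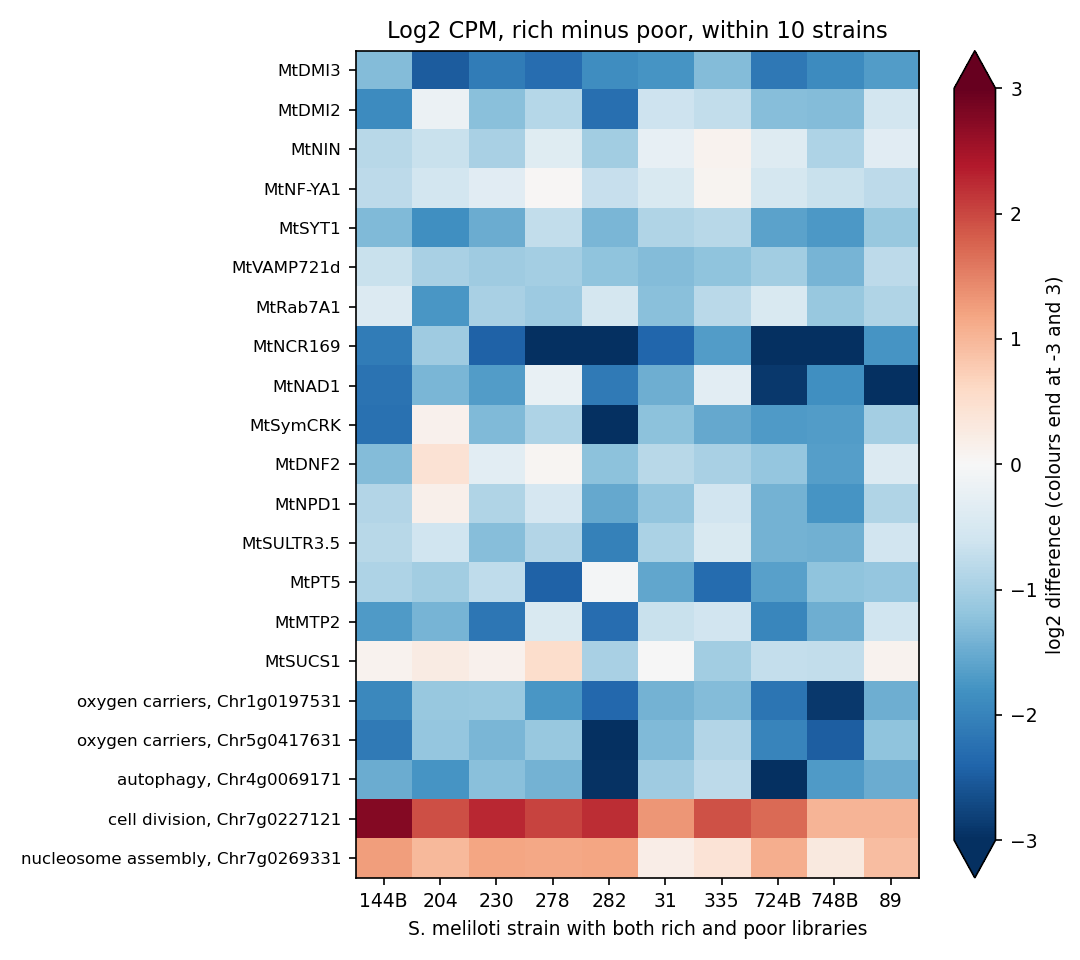
Each cell is the log2 CPM difference between the mean of the rich and the mean of the poor libraries of 1 strain (columns, 10 strains) for 1 gene (rows); blue is lower and red higher in rich libraries, and the colours end at -3 and 3. The rows of MtDMI3, MtSYT1 and MtNCR169 are blue in 10 of 10 strains, that of MtSUCS1 is mixed, and the cell division and nucleosome assembly genes are red in all 10.

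The same within-strain fit was made on the 80 A17 libraries, which share no library with DZA but received the same strains. In A17 the share was 50% or more in 12 and 20% or less in 30 libraries. Of 34843 genes tested there, 11980 (34.4%) were higher and 10564 (30.3%) lower with the rhizobial share. Of the 10271 genes called higher in rich DZA nodules and tested in A17, 8422 (82.0%) were also higher with the share in A17 and 163 (1.59%) lower, and of 9977 genes called lower, 8034 (80.5%) were also lower and 96 (0.96%) higher. The same 10 largest rows took from 22.1% to 83.3% of the plant counts of the A17 libraries. No fit with their share as a covariate was made in A17, so whether the agreement rests on it was not tested. Direction also went with level in DZA, where 67.7% of the lowest quartile were higher and 56.8% of the top quartile lower. No share of genes at the same level was taken in A17, so how much of the agreement goes with level was not tested. A low gene could also pass the A17 filter through the libraries where it was high. MtNCR169 had a slope of -0.51 log2 units per 10 points in A17 (edgeR adjusted p = 5.5e-11), MtDMI3 of -0.32 (edgeR adjusted p = 5.7e-16) and MtNAD1 of -0.37 (edgeR adjusted p = 8e-15). Of the SNF genes 46 were lower and 8 higher, and of the oxygen carriers 7 were lower. MtMOT1.3, lower in rich DZA nodules, had a slope of -0.03 in A17 that did not pass (edgeR adjusted p = 0.64), whereas MtMOT1.2 was higher with the share there (0.30, edgeR adjusted p = 6e-05). The difference between the hosts was not tested.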

How the data were processed

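Nodule RNA of DZA and A17 plants was sequenced after preparation with a stranded mRNA kit on 1 NovaSeq lane. The authors deposited estimated counts per gene, which they obtained with Salmon 1.4.0 against M. truncatula A17 r5.0 transcripts (messenger, non-coding and ribosomal RNA) and those of the S. meliloti reference strain and imported as bias-corrected counts without an offset. Of 56121 rows 49928 were plant genes. These expected counts were rounded, rows were split by organism, and a plant gene was kept where 4 or more of the 80 libraries had 10 counts or more. Gene fits used edgeR 4.0.16 (TMM, glmQLFit, glmQLFTest) in R 4.3.3, alternatives used limma-voom (3.58.1) or DESeq2 (1.42.0), and the threshold was an adjusted p of 0.05. CPM values are plant counts per TMM-scaled plant library. Composition was compared by two-sided permutation tests with 100000 resamples. Plants are the replicates; they were numbered in accession order within a strain, and each carries its own plant number.

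The groups, members and lists were chosen with earlier results of these data known. Genes named in the text were SNF genes with an acronym that passed (44), up to 10 named genes per direction that passed in both DZA fits (9 higher, 10 lower), up to 3 members of each list, and the 3 largest rows. MtDMI1, MtDME, MtCHIT5a, MtTML1 and the histone genes fall outside this rule and were chosen after their values were seen. Of the reference table's 39590 genes none carried the identifiers of the counts, so product names came from 61 genes annotated by the study, and 12 of 18 lists defined by product names matched no gene. Gene identifiers carry the chromosome; coordinates were not used here. Alternatives covered scaling, tool, low-count filter, the largest and organelle rows, thinning, covariates, thresholds, strain as a block, the strains with mismatched libraries, and each replicate.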

Additional observations from a re-analysis of the deposited data

Results flagged for a closer look

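Gaps between strains were examined for the rhizobial share and the share of the 10 largest rows over the 4 libraries of each strain, and for the within-strain differences of the named genes over the 10 strains with both rich and poor libraries. Of 124 such groups 6 held a value far from the others, while chance flags about 1 in 20, or 6.2.

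The large chromosome 5 row MtrunA17_Chr5g0422141 had a difference of mean log2 levels of -5.32 in strain 89, while the other 9 strains were between 2.18 and 5.06. One of the 3 rich libraries of that strain, plant 3452, listed the row at 0, and the value rests on it. The rich plants 3275 and 3468 were higher, at 2.496e+05 and 2.272e+05 CPM, than the poor plant 3446 at 5.745e+04 CPM. The annexin gene MtAnn1 was at -2.58 in strain 144B against -1.38 to -0.08 in the others. Among list members, the autophagy gene MtrunA17_Chr1g0194141 was at 0.74 in strain 204 against -3.01 to -1.02, and the autophagy gene MtrunA17_Chr3g0129641 at -1.42 in strain 282 against -0.88 to -0.35. The translation gene MtrunA17_Chr3g0117071 was at 0.095 in strain 230 against -1.10 to -0.50, and the phosphate starvation gene MtrunA17_Chr3g0129631 at 0.79 in strain 144B against -1.36 to -0.43. In strains 144B, 204 and 282 each of these differences sets 1 rich against 1 poor library.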

How the results depend on the processing

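The plant depth of the rich libraries limits what can be said of low genes, most of which were called higher, and every direction is relative to the scaling. Between rich and poor libraries, 5135 genes were higher and 20135 lower with the plain plant sum, 5875 were lower with DESeq2, 18041 were higher without the filter, 6760 were higher with strain as a block, and 5954 were higher and 5988 lower after thinning, where fewer genes were tested. With the share of the 10 largest rows as a covariate, chosen after seeing the data, 965 were higher and 618 lower; the cause was not tested. Leaving out each replicate in turn gave 9980 to 11161 higher and 8138 to 9359 lower genes. Within strains, 3027 genes were higher and 20923 lower with the plain sum, 6220 were lower with DESeq2, 6272 were higher after thinning, and 6576 were higher and 4383 lower with the covariate for the 10 largest rows; without each replicate 6811 to 9236 were higher and 7734 to 10055 lower. All other alternatives moved these counts by less than 1.5 times.

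Of 177 list members 99 were lower and 10 higher. These counts were 162 and 2 with the plain sum and 11 and 0 with the covariate for the 10 largest rows, and 30 were higher with DESeq2, the last 2 chosen after seeing the data. Of 82 named genes 63 kept their direction with that covariate and 7 their call, and with strain as a block 68 kept both and 14 lost the call. Under the plain sum 10 turned: 30S ribosomal protein S14 (-0.35), diacylglycerol O-acyltransferase 1B (-0.65), elongation factor 1-alpha (-0.63), MtFLOT2 (-0.70), MtMOT1.2 (-0.30), MtrunA17_Chr1g0186761 (-0.81), MtrunA17_Chr2g0331161 (-0.76), MtrunA17_Chr4g0072411 (-0.72), MtrunA17_Chr5g0438671 (-0.31) and MtrunA17_Chr7g0269331 (-0.43). Under DESeq2 2 turned, MtDGD1 (0.12) and MtVPS34 (0.032). The organelle share differed by -0.699 to -0.426 percentage points without each replicate and lost its call without replicate 2 (permutation p = 0.073). No paired analysis was possible because plants carry no replicate number shared between groups; rich and poor libraries were matched by strain alone, through the block above.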

Other observations

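Genes of the organelle genomes did not follow the nuclear genes of the same level. Of 187 mitochondrial genes tested 114 were higher and 19 lower in rich DZA nodules, with a median log2 difference of 1.19, while 16.3% of genes at the same quartiles were higher. Their summed share of plant counts nevertheless was 2.40% ± 0.65 (SD, n = 20) in rich and 3.06% ± 0.36 (SD, n = 22) in poor libraries (two-sided permutation p = 1e-04), lower in 10 of 10 strains with both, and under the plain sum the median difference of the genes was -0.05. Of 109 plastid genes 38 were higher and 27 lower, with a median of 0.11. The direction of the plastid genes turned with strain as a block (12 higher, 26 lower, median -0.14) and under the plain sum (12 higher, 71 lower, median -0.97). The plastid share of plant counts was 0.921% ± 0.223 in rich and 0.816% ± 0.154 in poor libraries (permutation p = 0.078). In A17, 137 mitochondrial genes were higher and 12 lower with the rhizobial share, and 45 plastid genes were higher and 19 lower. Both organelle genomes together took 3.32% and 3.88% of plant counts in rich and poor libraries (permutation p = 0.0057), and with this share as a covariate 10462 genes were higher and 9115 lower between the groups.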
